A study of Homo sapiens with 4 samples.

Results

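The 8 genes described here are those of the receptor that thrombin activates and of the proteins that make, restrain or resemble its protease signal: the protease-activated receptors F2R and F2RL1, tissue factor F3, the inhibitors TFPI and SERPINE2, the plasminogen activators PLAU and PLAT, and the urokinase receptor PLAUR. They were taken by name from a table of 64936 named genes, and F2R was the reason for the choice, because its fragment count was far lower in HT-29 cells with SCS than without it. The RNA came from HT-29 cells, which were derived from a colorectal adenocarcinoma, and from NCM460 cells, which served as the normal colon line. Each line was cultured without SCS or with 100 μg/mL SCS, a chondroitin sulfate prepared from sturgeon, for 24 h. With 1 library for each of the 4 conditions (HT-29 control, HT-29 SCS, NCM460 control and NCM460 SCS), the differences have no replicate check, and every interval below covers counting error only.

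Thrombin is the protease that ends the coagulation cascade. It also acts on cells by cutting the outer end of a protease-activated receptor, and the new end then folds back and switches the receptor on. F2R encodes PAR1, the main thrombin receptor, and F2RL1 encodes PAR2, which is cut by trypsin-like proteases rather than by thrombin. Both signal through heterotrimeric G proteins and arrestins and are found on epithelial and tumor cells. Plasminogen activators are proteases of the same fold that turn plasminogen into plasmin, and urokinase, the product of PLAU, does so while bound to its receptor on the cell surface.

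The deposited values were converted back to whole fragments, which totalled between 1173695 and 1680402 per library. Mitochondrial genes took between 13.6% and 61.8% of them, which left between 519342 and 1415563 nuclear fragments, fewest in the NCM460 control. Levels are given as CPM, the fragment count scaled to library size with TMM factors, and per kilobase of transcript where genes are set beside each other. A gene was called when it differed by more than 1.5-fold and its 95% exact Clopper-Pearson interval excluded no change. In NCM460 cells the log2 fold change with SCS went down with transcript GC content (Spearman's rank correlation of -0.63 across 12681 loci, which are not independent replicates), against -0.12 across 12182 loci in HT-29 cells. For the lines without SCS the correlation was -0.50 across 12726 loci. Values with a smooth GC trend subtracted are therefore given wherever they alter the call of one of the 8 genes.

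The labelled cell type was checked by 12 markers of colon epithelium. HT-29 libraries held fragments of 9 of them, with CDX1, CDX2 and GPA33 at 0. NCM460 libraries held fragments of 6, with KRT20, VIL1, CDX1, LGALS4, CEACAM5 and GPA33 at 0, and with 14 and 12 fragments of CDX2. The 12 markers summed to 6440 and 3530 CPM in HT-29 without and with SCS, and to 4280 and 2620 CPM in NCM460. The summed level of 8 mesenchymal markers was 6.27 CPM in the HT-29 control and 10.3 CPM with SCS, against 123 and 132 CPM in NCM460 cells. In NCM460 without and with SCS, SPARC had 65 and 102 fragments, and none of the other mesenchymal markers had more than 17. COL1A2 and COL3A1 were at 0 there. The 5 endothelial markers summed to between 2.05 and 13.9 CPM over the 4 libraries. Of the blood cell markers, PTPRC, CD3E and PF4 were at 0 in all 4 libraries, ITGAM had 8 and 4 fragments in HT-29 without and with SCS and 0 in NCM460, and GP1BA had 1 or 2 fragments in each library. The part of other cell types in the values below was not tested. In such bulk samples, fewer cells that express a gene and less RNA per cell cannot be told apart.

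The promoters of the receptor gene and the urokinase receptor gene that were called higher with SCS in one line are shown for reference. They are the 250 bases before the RefSeq transcript start on GRCh38.p14, with F2RL1 on the plus strand at chr5:76818780-76819029 and PLAUR on the minus strand at chr19:43670170-43670419. The gene positions given below reach further upstream than these starts. By them the F2RL1 gene begins at 76818933, within its window, and the PLAUR gene reaches 43670547, so its whole window lies inside the gene. Capitals mark matches on either strand to an AP-1 motif (TGANTCA), an SP1 motif (GGGCGG), an EGR1 motif (GCGNGGGCG) or a TATA box (TATAAA).
F2RL1: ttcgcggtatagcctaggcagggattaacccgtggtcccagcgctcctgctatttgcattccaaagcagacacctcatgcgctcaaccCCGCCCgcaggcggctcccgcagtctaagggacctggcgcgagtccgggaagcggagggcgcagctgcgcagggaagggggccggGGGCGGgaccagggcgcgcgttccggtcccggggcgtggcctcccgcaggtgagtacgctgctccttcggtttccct
PLAUR: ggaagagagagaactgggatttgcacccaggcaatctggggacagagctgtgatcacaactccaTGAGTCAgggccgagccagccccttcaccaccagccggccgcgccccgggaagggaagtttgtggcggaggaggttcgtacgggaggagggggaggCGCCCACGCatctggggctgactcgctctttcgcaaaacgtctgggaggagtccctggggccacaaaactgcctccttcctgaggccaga
The F2RL1 window held 2 matches to the SP1 motif, and the PLAUR window held 1 match to the AP-1 motif and 1 to the EGR1 motif. Among 35116 promoter windows of this length, 6.57% held the AP-1 motif, 42.6% the SP1 motif, 8.41% the EGR1 motif and 10.7% the TATA box. A match is a description of letters and not of a bound site. Of the 8 genes, 6 had a window in the RefSeq table, and F2R and PLAT did not. Of the other genes with a window, F3 matched all 4 motifs, SERPINE2 matched the SP1 motif once, and TFPI and PLAU matched none. SERPINE2 and PLAU had 2 windows each, of which only the first listed was searched.

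F2R lies on chromosome 5 of GRCh38 (ENSG00000181104, positions 76716043 to 76735781). HT-29 cells held 167 of its fragments without SCS and 11 with SCS, and NCM460 cells held 9 and 18. As levels these were 80.5, 4.51, 11.4 and 16.4 CPM. The HT-29 control stood above the other 3 libraries, and its counting interval met none of theirs. SCS against control in HT-29 gave a log2 fold change of -3.83 (-5.19 to -3.28), a 14.2-fold lower level. A lower log2 fold change was found for 0.0407% of the 12293 loci compared. These are the values for which the gene was chosen, so they are a description, and they rest on the deposited table alone, whose FPKM column gave -3.91. In NCM460 the value was 0.48 (-0.70 to 1.86), which was not called, and it was -0.11 with the GC trend subtracted.

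F2RL1 lies downstream of F2R on the same chromosome (ENSG00000164251, 76818933 to 76835315). HT-29 cells held 102 of its fragments without SCS and 87 with SCS, and NCM460 cells held 13 and 60, or 49.2, 35.7, 16.4 and 54.6 CPM. The NCM460 control was the lowest library and its interval did not meet that of any other. With SCS, F2RL1 was called higher in NCM460, at a log2 fold change of 1.66 (0.85 to 2.72), or 1.08 (0.27 to 2.14) with the GC trend subtracted. In HT-29 cells it was -0.45 (-0.89 to -0.03), short of 1.5-fold. The other receptors of the family were nearly without fragments, since F2RL3 was at 0 in all 4 libraries and F2RL2 had 1 fragment in NCM460 with SCS.

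**Figure D1:**
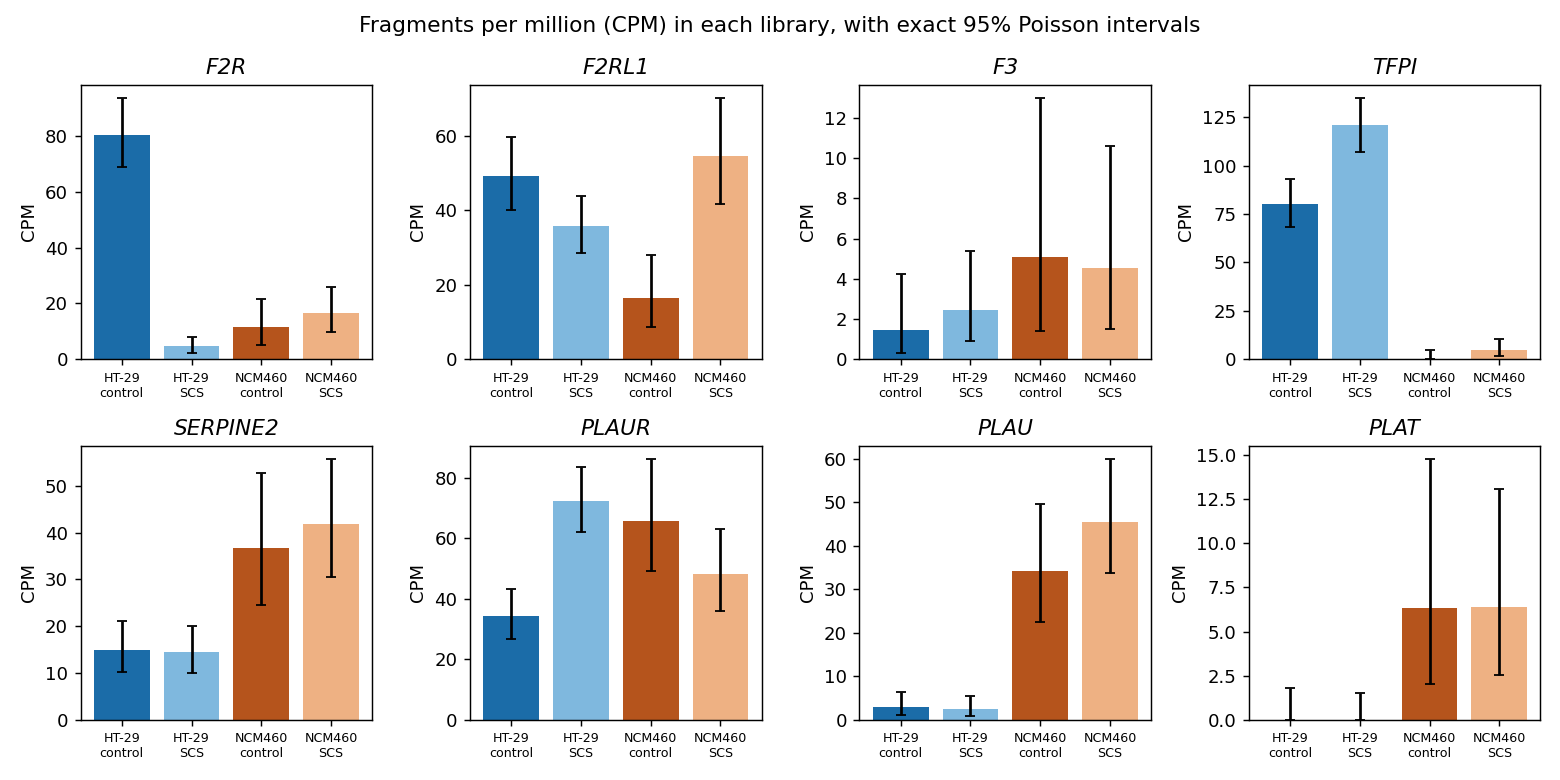
Level of each of the 8 genes in each library in CPM (each panel with its own axis from 0). Bars are single libraries and error bars exact 95% Poisson intervals of the fragment count. F2R stands at 80.5 CPM in the HT-29 control and between 4.51 and 16.4 CPM elsewhere, while TFPI is high in both HT-29 libraries and PLAU in both NCM460 libraries.

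Taking the receptor pair together removes the scaling between libraries. F2R made up 62.1% (56.0% to 67.9%, exact binomial) of the fragments of F2R and F2RL1 in the HT-29 control and 11.2% (5.74% to 19.2%) with SCS. In NCM460 cells the share was 40.9% (20.7% to 63.6%) in the control and 23.1% (14.3% to 34.0%) with SCS. The NCM460 intervals overlapped. The HT-29 shares reuse the fragments by which F2R was chosen and are a description.

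The change with SCS was set beside itself in the other line by the ratio of ratios. The HT-29 log2 fold change minus the NCM460 one was -4.63 (-6.31 to -3.07) for F2R and -2.18 (-3.27 to -1.19) for F2RL1. With the GC trend subtracted these differences were -4.06 and -1.63. Both receptors were thus lower with SCS in HT-29 relative to NCM460 beyond counting error, but for F2R the value contains the fall by which it was chosen.

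**Figure D2:**
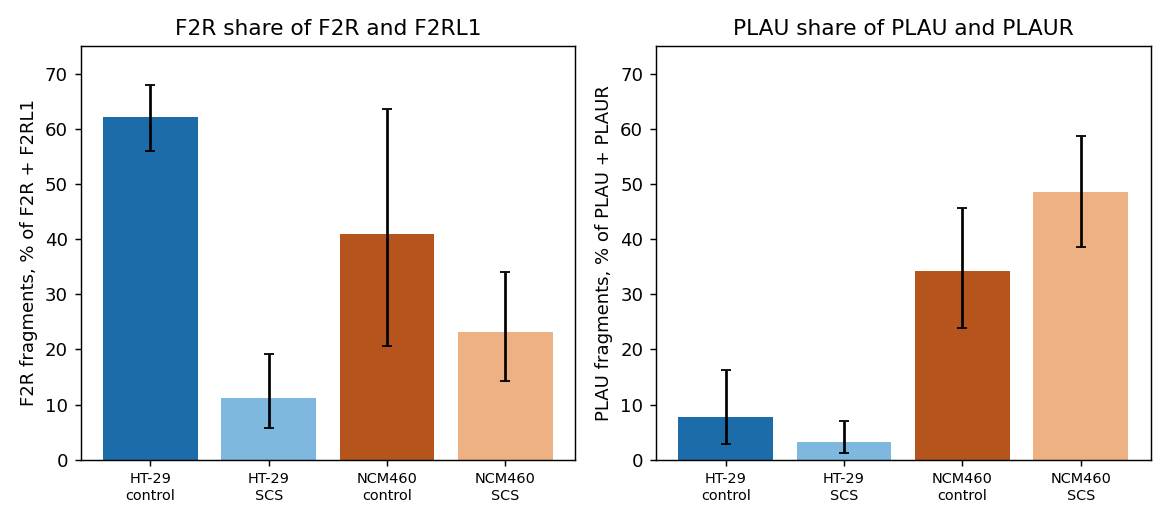
Share of F2R in the fragments of F2R and F2RL1 (left) and of PLAU in the fragments of PLAU and PLAUR (right), in % with exact 95% binomial intervals, for each library. F2R drops from 62.1% to 11.2% with SCS in HT-29, and PLAU is at 34.2% and 48.5% in NCM460 against 7.79% and 3.3% in HT-29.

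Around F2R on chromosome 5, the upstream gene IQGAP2, a scaffold protein of the cytoskeleton (76403249 to 76708132), had 35 fragments in HT-29 without SCS and 1 with it, and 0 and 1 in NCM460. Its interval for SCS in HT-29 ran from -10.71 to -2.79 on the log2 scale. Downstream of F2RL1, AGGF1 had 20 and 33 fragments in HT-29 without and with SCS, a log2 fold change of 0.44 (-0.35 to 1.37), and ZBED3 had 28 and 38, a log2 fold change of 0.19 (-0.53 to 0.97). In HT-29, low counts with SCS were thus seen at F2R and IQGAP2, and not at the 3 genes after F2R. F2RL2, which lies within the span of IQGAP2, had 0 fragments in both HT-29 libraries and shows no change either way.

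The 5 loci with the profile nearest to that of F2R over the 4 libraries, among 7841 with a mean of at least 10 CPM, were ENC1, CDC45, LMNB1, CLSPN and HELLS. Their Euclidean distances in centred log2 CPM were 0.41 for ENC1, 0.91 for each of CDC45, LMNB1 and CLSPN, and 0.92 for HELLS. ENC1, an actin-binding protein, had 328, 34, 26 and 39 fragments in the order HT-29 control, HT-29 SCS, NCM460 control and NCM460 SCS. LMNB1, which encodes lamin B1, had 258, 33, 36 and 51 in the same order. CDC45 and CLSPN act in DNA replication and its checkpoint. The HELLS locus is shared by 2 genes, so its fragments cannot be given to either.

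Tissue factor, which starts coagulation by binding factor VII, was near the limit of detection in both lines. F3 (ENSG00000117525, chromosome 1, 94529225 to 94541800) had 3 and 6 fragments in HT-29 without and with SCS, and 4 and 5 in NCM460. No difference in F3 was detectable at this depth, since the log2 fold change with SCS was 0.46 (-1.46 to 3.40) in HT-29 and -0.12 (-2.37 to 2.18) in NCM460. Its levels lay between 1.45 and 5.06 CPM.

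TFPI, the inhibitor that blocks tissue factor with factor VII and factor Xa, was mainly a transcript of HT-29 cells (ENSG00000003436, chromosome 2, 187464230 to 187565760). Its fragments numbered 166 and 294 in HT-29 without and with SCS, and 0 and 5 in NCM460, or 80.0, 121, 0 and 4.55 CPM. A count of 0 allows up to 3 fragments, so without SCS the level was at least 21.1-fold higher in HT-29. This bound takes the HT-29 count as exact, and the counting interval, which does not, began lower, at 4.08 on the log2 scale. With SCS the log2 fold change of HT-29 over NCM460 was 4.39 (3.49 to 6.36). Within HT-29, SCS against control gave 0.58 (0.31 to 0.88), just under the 1.5-fold threshold. With total fragments only it was 0.85 and was called higher, where 3168 of the 4308 loci called were higher. In NCM460 cells the 5 fragments with SCS were at least 1.2-fold above the floor of the control, with an interval from -0.60, so no difference was called. There the value was 2.04 with total fragments only and was called higher, where 3958 of the 4220 loci called were higher. By FPKM, whose calls use the fold threshold without an interval, it was 2.57 and was called higher. TFPI made up 98.2% and 98.0% of the TFPI and F3 fragments in HT-29 without and with SCS, against 50.0% of 10 fragments in NCM460 with SCS.

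SERPINE2, or protease nexin-1, is a glycosaminoglycan-binding serpin that inhibits thrombin and the plasminogen activators (ENSG00000135919, chromosome 2, 223975112 to 224039319). Its fragments numbered 31 and 35 in HT-29 without and with SCS, and 29 and 46 in NCM460, or 14.9, 14.4, 36.7 and 41.9 CPM. Both NCM460 libraries were above both HT-29 libraries. The log2 fold change with SCS was -0.05 (-0.80 to 0.69) in HT-29 and 0.18 (-0.51 to 0.91) in NCM460, neither of them called. With the GC trend subtracted the NCM460 value was -0.81 (-1.5 to -0.08) and was called lower. In that setting 12.5% of all loci were called and 7.18% were lower. With total fragments only the NCM460 value was 0.84 and was called higher, where 6.21% of the loci called were lower. The direction of SERPINE2 in NCM460 thus rests on the treatment of GC content and on the scaling of the libraries.

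Urokinase was mainly a transcript of NCM460 cells. PLAU (ENSG00000122861, chromosome 10, 73909177 to 73917497) had 6 fragments in each HT-29 library, and 27 and 50 in NCM460 without and with SCS, or 2.89, 2.46, 34.2 and 45.5 CPM. Both HT-29 libraries lay below both NCM460 libraries with no overlap of intervals. With SCS the log2 fold change was -0.16 (-2.14 to 1.67) in HT-29 and 0.40 (-0.29 to 1.15) in NCM460. The latter became 0.76 (0.07 to 1.5), called higher as were 5.29% of all loci, with the GC trend subtracted. With total fragments only it was 1.05 and was also called higher, where 3958 of the 4220 loci called were higher. PLAU overlaps C10orf55, which had 1 fragment in the NCM460 control.

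PLAT encodes tissue plasminogen activator, the activator that works best on fibrin, and lies on chromosome 8 (ENSG00000104368). It had 0 fragments in both HT-29 libraries, and 5 and 7 in NCM460 without and with SCS. It was thus detected in NCM460 libraries alone, at few fragments. PLAT was at least 4.37-fold lower in HT-29 than in NCM460 without SCS and at least 5.18-fold lower with SCS, both against the floor of 3 fragments. These bounds take the NCM460 counts as exact, and the counting intervals allow smaller differences, since they ended at -1.27 and -1.68 on the log2 scale. In NCM460 the log2 fold change with SCS was 0.01 (-1.86 to 2.01).

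PLAUR encodes the surface receptor that holds urokinase (ENSG00000011422, chromosome 19, 43646095 to 43670547). Its fragments numbered 71 and 176 in HT-29 without and with SCS, and 52 and 53 in NCM460, or 34.2, 72.2, 65.8 and 48.2 CPM. The HT-29 control was the lowest library, and its interval met that of NCM460 with SCS but not the other two. SCS against control in HT-29 gave 1.05 (0.67 to 1.5) on the log2 scale, called higher. In NCM460 it gave -0.44 (-1.03 to 0.13), which was 0.02 with the GC trend subtracted. The HT-29 change minus the NCM460 change was 1.52 (0.80 to 2.24), and 1.14 (0.42 to 1.86) with the GC trend subtracted. The share of PLAU in the fragments of PLAU and PLAUR was 7.79% (2.91% to 16.2%) in the HT-29 control, and 3.3% (1.22% to 7.04%) with SCS. In NCM460 cells it was 34.2% (23.9% to 45.7%) and 48.5% (38.6% to 58.6%), with no overlap of intervals between the lines.

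Per kilobase of transcript, PLAUR and F2R headed the HT-29 control with levels of 21.3 (16.6 to 26.8) and 21.1 (18.0 to 24.5) CPM per kb, which did not differ beyond counting error, and the interval of F2RL1, at 16.9, overlapped both. TFPI followed at 10.4, SERPINE2 at 2.5, PLAU at 1.09 and F3 at 0.632, the last 3 with overlapping neighbours, and PLAT was at 0. In the NCM460 control PLAUR led at 40.9 (30.5 to 53.6) CPM per kb, above PLAU at 12.8 (8.47 to 18.7). SERPINE2 at 6.13, F2RL1 at 5.64, F2R at 2.98, F3 at 2.21 and PLAT at 1.83 each overlapped the next, SERPINE2 also overlapped PLAU, and TFPI was at 0. The deposited FPKM values, which use other lengths, put TFPI first in the HT-29 control at 25.3 and SERPINE2 above PLAU in the NCM460 control at 20.9 against 17.1.

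To see how SCS moved the whole group, its calls were counted against those of all loci. In HT-29 cells 2 of the 7 members with enough fragments were called, F2R lower and PLAUR higher, where 31.5% of all loci were called (16.7% higher and 14.8% lower). Nothing can be read from this count, because the group was chosen on that comparison. In NCM460 cells 1 of the 8 was called, F2RL1 higher, against 29.2% of all loci (15.4% higher and 13.8% lower). An edgeR quasi-likelihood fit with line and treatment as terms found 9 loci with a treatment effect shared by both lines (0.0691% of 13033 at an adjusted p under the threshold, and 705 at an unadjusted p under 0.05). No member was among them, and the members other than F2R had adjusted p between 0.966 and 0.999 in edgeR. This fit has 1 residual degree of freedom.

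**Figure D3:**
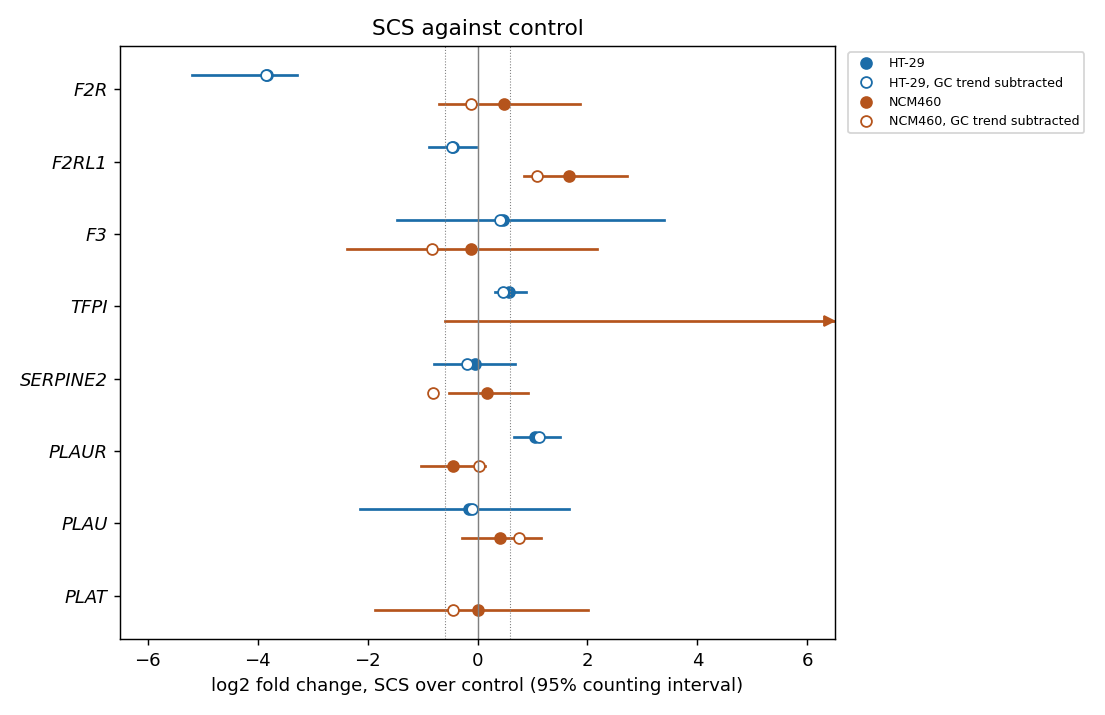
Log2 fold change of SCS over control for each gene in HT-29 and NCM460, with 95% counting intervals. Filled points are TMM-scaled values, open points have the GC trend subtracted, dotted lines mark 1.5-fold, an arrow marks an interval with no end, and no point is drawn where a library had 0 fragments. F2R in HT-29 lies at -3.83, PLAUR in HT-29 at 1.05 and F2RL1 in NCM460 at 1.66.

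The lines were then compared with each other. Without SCS, 7 of the 8 members were called, 3 higher and 4 lower, against 48.5% of all loci (25.4% higher and 23.1% lower). Higher in HT-29 were F2R, with a log2 fold change of 2.69 (1.86 to 3.98), F2RL1, with 1.51 (0.74 to 2.54), and TFPI. Lower in HT-29 were PLAU, with -3.10 (-5.13 to -2.26), SERPINE2, with -1.23 (-2.07 to -0.51), PLAUR, with -0.92 (-1.48 to -0.40), and PLAT. Subtracting the GC trend, which left 38.0% of all loci called (18.4% higher and 19.7% lower), ended the call of PLAUR, at -0.46, and F3, at -1.23 (-4.58 to 0.76), was called lower then, at -2.00. With SCS, 6 of the 8 were called, 1 higher and 5 lower, against 46.7% of all loci (24.2% higher and 22.5% lower). TFPI was still higher in HT-29, and PLAU, at -3.65 (-5.72 to -2.98), SERPINE2, at -1.46 (-2.22 to -0.88), and PLAT were still lower. Both receptors had the opposite order with SCS, F2R at -1.61 (-3.09 to -0.70) and F2RL1 at -0.60 (-1.10 to -0.11), and PLAUR was at 0.57 (0.13 to 1.05), not called. PLAUR was called higher, at 0.65, with the GC trend subtracted, where 23.2% of all loci were higher. With total fragments only PLAUR was called higher at 1.23, where 5383 of the 7050 loci called were higher. Scaling by total fragments only ended the calls of SERPINE2 and PLAUR without SCS and of F2RL1 with SCS, and it put PLAUR at 0.14 and F2RL1 at 0.05. Each of these comparisons includes an HT-29 library by which F2R was chosen, so its values here, which are among the counts, are a description. PLAT in both comparisons, and TFPI without SCS, passed the filter through a single line, so their direction there was fixed.

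**Figure D4:**
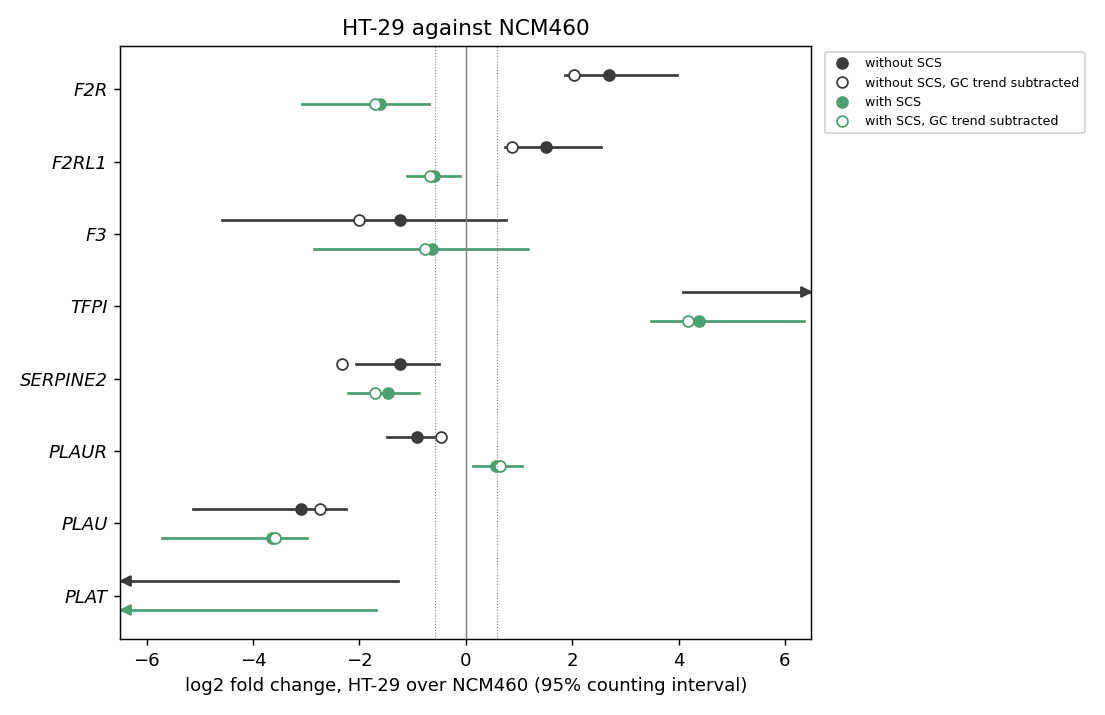
Log2 fold change of HT-29 over NCM460 for each gene, without and with SCS, with 95% counting intervals and the same symbols as for SCS against control. TFPI lies to the right and PLAU, PLAT and SERPINE2 to the left under both conditions, while F2R and F2RL1 lie to the right without SCS and to the left with it.

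The edgeR fit tested the line difference over both treatments, with the treated and untreated library of a line standing in for replicates. TFPI was higher in HT-29, with a log2 fold change of 5.44 and an adjusted p of 5.44e-09. PLAU, with a log2 fold change of -3.85 and an adjusted p of 1.58e-05, and PLAT, with an adjusted p of 0.0179, were lower. In all, 16.2% of 13033 loci were called in this fit, 7.99% higher and 8.17% lower. SERPINE2, with a log2 fold change of -1.42, had an adjusted p of 0.12, and with the GC trend subtracted it had -2.07 and an adjusted p of 0.000716. F3, F2RL1 and PLAUR had adjusted p of 0.558, 0.74 and 0.894 in edgeR. In DESeq2's Wald test the adjusted p was 2.01e-05 for TFPI and 0.00604 for PLAU, and PLAT was given none. The spread behind these p-values is what the line and treatment terms leave, with 1 residual degree of freedom, moderated over all loci. It reflects how far the change with SCS differed between the lines, and not the spread between separate cultures.

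The wider pathway was followed in 7 lists of genes. The lists were drawn up with earlier results of these data known, so their counts and medians are a description. Counts and medians of a list include the members that belong to it, while the genes named as highest and lowest leave members out. The coagulation factors thus include F3, the coagulation inhibitors TFPI and SERPINE2, and the plasminogen system PLAU, PLAUR and PLAT. Of 8 receptor partners, 7 were tested in both lines. In HT-29 with SCS, 1 was called higher, GNA13, a G protein alpha subunit, with 62 and 206 fragments and a log2 difference of 1.46 (1.08 to 1.93). The other calls were 3 lower, against 16.7% of all loci higher and 14.8% lower, and ARRB1, the gene of beta-arrestin 1, was the lowest, with 41 and 11 fragments and -1.87 (-3.24 to -1.14). The median over the list was -0.25 against 0.07 over all loci. In NCM460 cells 2 were called higher and 3 lower, against 15.4% and 13.8% of all loci, with GNA13 highest, at 5 and 27 fragments and 1.77 (0.56 to 3.69), and GNA11 lowest, at 60 and 26 fragments and -1.63 (-2.41 to -1.0). With the GC trend subtracted only GNA11 stayed called, at -0.96, against 12.5% of all loci. The thrombomodulin gene THBD was at 0 in all libraries.

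Transcripts for thrombin itself and for most of the clotting cascade were not detected in these libraries. RNA alone was measured here, so the values do not tell whether the proteins were present in the cultures. Of 19 coagulation factor genes, 9 had any fragment, and F2, F7, F9, F10, F11 and the 3 fibrinogen genes FGA, FGB and FGG were at 0. In HT-29 cells with SCS, 1 of 5 tested was called lower, against 14.8% of all loci, namely F5, the cofactor of factor Xa, which had 64 and 16 fragments, a log2 difference of -2.04 (-3.12 to -1.42). PROS1, the gene of protein S, at 42 and 32 fragments and -0.58 (-1.34 to 0.07), was not called, but with the GC trend subtracted it was called lower, at -0.74, as were 15.2% of all loci. In NCM460 cells F5 was at 0 and none of 4 tested was called. Of 8 coagulation inhibitors 3 were tested in each line and none was called with SCS, and the locus of SERPINA5 in HT-29, which 3 genes share, had 16 and 11 fragments and -0.64 (-2.03 to 0.43). With the GC trend subtracted SERPINE2 was called in NCM460, as given above.

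In the plasminogen system, 11 of 15 genes were tested in HT-29 with SCS. Of these, 4 were called higher and 3 lower, against 16.7% and 14.8% of all loci, with a median of 0.02 against 0.07 over all loci. SERPINI1, the serpin neuroserpin, which inhibits tissue plasminogen activator, was highest, at 3 and 22 fragments and 1.93 (0.91 to 5.03). ENO1, a glycolytic enzyme that also binds plasminogen at the cell surface, was lowest, at 1673 and 723 fragments and -1.44 (-1.57 to -1.32). In NCM460 cells 3 of 10 were called lower and none higher, against 13.8% and 15.4% of all loci, and 2 lower and 1 higher with the GC trend subtracted, with S100A10, a plasminogen-binding partner of annexin A2, lowest, at 92 and 48 fragments and -1.39 (-1.95 to -0.90). Plasminogen, PLG, was at 0 in all libraries.

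Of 13 genes of proteases and protease inhibitors, which include activators of PAR2, 11 were tested in HT-29 with SCS. Of these, 3 were called higher and 1 lower, against 16.7% and 14.8% of all loci, with SPINK1, a trypsin inhibitor, highest, at 30 and 102 fragments and 1.46 (0.93 to 2.17), and KLK6, a kallikrein-related protease, lowest, at 499 and 286 fragments and -1.03 (-1.25 to -0.82). In NCM460 cells 2 of 6 were called lower, against 13.8% of all loci, and none was called with the GC trend subtracted. Between the lines without SCS, 7 of 10 were higher in HT-29 and none lower, against 25.4% of all loci higher, and 9 were higher with the GC trend subtracted, against 18.4%. KLK6 had 499 fragments in HT-29 against 14 in NCM460. With SCS 10 of 11 were higher in HT-29, against 24.2% of all loci. TMPRSS2, TMPRSS4, PRSS1, PRSS2 and SPINK1 were at 0 in both NCM460 libraries. They could pass the filter only through HT-29, so their direction was fixed and these counts between the lines are a description.

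Early response genes, which thrombin receptors are known to induce, were followed in a list of 12. In HT-29 cells 7 of 10 tested were called lower and none higher, with a median log2 fold change of -2.18 against 0.07 over all loci. FOSB, an AP-1 subunit, had 1453 and 175 fragments and -3.26 (-3.52 to -3.06). FOS had 575 and 97 fragments and -2.76 (-3.13 to -2.49), and EGR1, a zinc finger factor, had 677 and 149 and -2.39 (-2.68 to -2.16). The matricellular genes CTGF, at 43 and 4 fragments, and CYR61, at 87 and 12, were called lower as well. JUN, at -0.08 (-0.29 to 0.13), ATF3 and CXCL8 were not called. The share of all loci called lower was 14.8%. Because this list was drawn up with earlier results of these data known, its counts in both lines are a description. In NCM460 cells 7 of 9 were called lower, against 13.8% of all loci, and 5 with the GC trend subtracted, against 7.18%. The median was -0.84 against 0.03 over all loci. FOS had 267 and 59 fragments there and -2.63 (-3.09 to -2.24), and PTGS2, which had 121 and 34 fragments in HT-29, was at 0. These genes also respond to many signals other than thrombin, and whether F2R had a part in their levels was not tested.

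**Figure D5:**
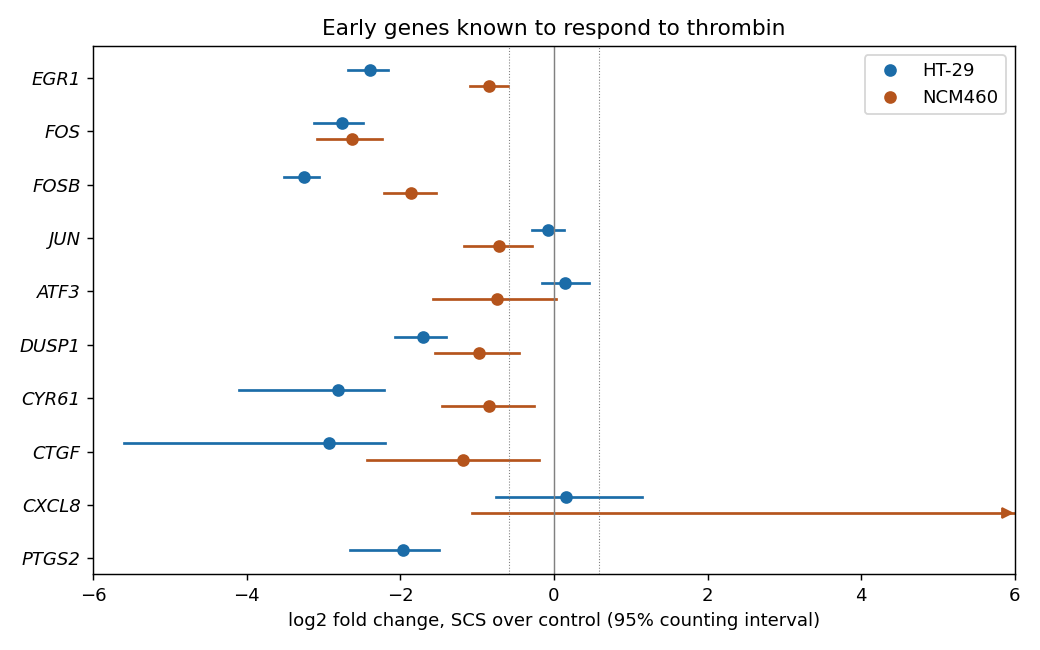
Log2 fold change of SCS over control for the early response genes tested, in HT-29 and NCM460, with 95% counting intervals and dotted lines at 1.5-fold. Most points lie left of the dotted line in both lines, with FOSB at -3.26 in HT-29 and FOS at -2.63 in NCM460, while JUN in HT-29 lies at -0.08.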

How the data were processed

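RNA-seq of HT-29 and NCM460 cells, each without and with SCS, was analysed from 1 library per condition. The members and lists were chosen with earlier results of these data known. According to the paper, low-quality reads and those with adapter or poly-N sequence were discarded and Cuffdiff was used, and the submitters' processing notes name bcl2fastq 2.17.1.14, cutadapt 1.9.1, Bowtie2, HTSeq 0.6.1 and hg19. Gene coordinates in the deposited table are those of GRCh38. The authors deposited a count column, which is a signal of fragments divided by a size factor, and an FPKM column for each library. Dividing by the worth of 1 fragment (0.686, 0.577, 2.04 and 1.33 in the HT-29 control, HT-29 SCS, NCM460 control and NCM460 SCS) gave whole numbers, within 0.05, for 99.84%, 99.94%, 99.89% and 99.94% of values above 0, and these were rounded to whole fragments. The 26 rows without a gene name, with 0.00581% to 0.0352% of the fragments, were left out. Genes that share fragments were merged into 18801 loci, of which 1731 hold several genes and none holds a member with another gene.

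Libraries were scaled by edgeR's TMM (version 4.0.16), and log2 fold changes came from CPM with a prior count of 2, for loci that averaged 1 CPM or more. Intervals at 95% are exact (Clopper-Pearson or Poisson, scipy 1.17.1). The floor is 3 fragments in a library. With 1 library per condition no test within a line was made. edgeR's quasi-likelihood test with Benjamini-Hochberg adjustment was fitted to all 4 libraries with line and treatment as terms on the recovered fragments, with DESeq2 1.42.0 as the alternative, and the methods were tested on simulated data. GC content and transcript length are those of the longest GENCODE transcript, and the GC trend is a lowess with span 0.3. Other alternatives were DESeq2 size factors, total fragments only, nuclear fragments only, a prior count of 0.5, no filter, a 2-fold threshold and FPKM with a pseudocount of 0.5. Calls by FPKM used the 1.5-fold threshold alone, without a counting interval. All members are named, and of each list the highest and lowest gene with a mean of at least 5 CPM, apart from some that are not reported here. Further list genes were named after their values were seen.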

Additional observations from a re-analysis of the deposited data

Results flagged for a closer look

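In 3 genes the change with SCS differed between the lines beyond counting error. The HT-29 log2 fold change minus the NCM460 one was -4.63 for F2R, -2.18 for F2RL1 and 1.52 for PLAUR. For F2R and F2RL1 the HT-29 value was below 0 and the NCM460 value above 0, and for PLAUR the reverse. With the GC trend subtracted the NCM460 value was -0.11 for F2R and 0.02 for PLAUR, so the opposite signs held for F2RL1 alone. The HT-29 value of F2RL1 and the NCM460 values of F2R and PLAUR were not called on their own. With 1 library per condition these differences were not tested against replicates, and F2R was chosen for its HT-29 value.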

How the results depend on the processing

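No paired analysis was possible because no condition has replicates to block on, although the edgeR fit does keep the libraries of a line together through its line term, and leaving out a replicate was not possible for the same reason. Of 155 values of members under other settings, 146 stayed within their counting interval, 7 did not, and 2 called values turned in direction. Values that were not called also changed sign, such as F2R in NCM460, at -0.11 with the GC trend subtracted, and PLAUR in NCM460, at 0.23 with total fragments only. The called values that turned were found with total fragments only, which gave 0.14 for PLAUR without SCS and 0.05 for F2RL1 with SCS, both HT-29 over NCM460. Among these 155 values calls were lost in 4 cases and gained in 12. The values cover DESeq2 size factors, total fragments only, nuclear fragments only, the GC trend and FPKM. Calls by FPKM rest on the fold threshold alone, without a counting interval, which is a looser rule. A prior count of 0.5 gave 3 members called with SCS in HT-29, against 2 in the analysis as reported, and 3924 loci against 3877. At 2-fold, 6 members against 7 were called between the lines without SCS, and 5 against 6 with SCS. Loci called in these comparisons numbered 5354 against 6214 without SCS, and 4929 against 6154 with SCS. Total fragments only moved the median of all loci to 0.31 for SCS in HT-29, 0.57 for SCS in NCM460, and 1.03 and 0.63 for the lines without and with SCS. In NCM460 cells 1 member was called in the analysis as reported, 4 with total fragments only, 3 with the GC trend subtracted and 2 by FPKM. Loci called in HT-29 with SCS numbered 3877, against 5873 by FPKM and 2303 at 2-fold. In NCM460 they numbered 3733, against 4220 with total fragments only, 1582 with the GC trend subtracted and 8030 by FPKM. Of the HT-29 calls 46.9% were lower, against 26.5% by total fragments and 58.4% by FPKM. In NCM460 this share was 47.2%, against 6.21%, 62.0% and, with the GC trend subtracted, 57.6%. Between the lines it was 47.7% without SCS, against 15.1% by total fragments and 62.9% by FPKM, and 48.1% with SCS, against 23.6% and 61.8%. The edgeR line term called 2106 of 13033 loci and DESeq2 880 of 10506. The edgeR treatment term called 9 of 13033, against 74 of 12928 with the GC trend subtracted and 27 of 1915 in DESeq2. The FPKM counts also differ by the rule for a call, and the cause of these shifts was not tested. The NCM460 libraries have the fewest nuclear fragments, and F3, PLAT and TFPI rest on few fragments there. In HT-29 without and with SCS, F3 had 3 and 6 fragments and PLAT had 0 in both. The part of depth in these counts was not tested.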
